A study of Mus musculus with 9 samples.

Results

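The 8 genes described here encode the core machinery that joins and divides mitochondria. They were chosen by name, and all 8 were found among the 26858 genes of the deposited table: *Opa1*, *Mfn1* and *Mfn2* for fusion, and *Dnm1l*, *Fis1*, *Mff*, *Mief1* and *Mief2* for fission. Their transcripts were measured by RNA-seq in SIX2 progenitors of the embryonic mouse kidney at E18.5, in 4 control and 5 mutant preparations, with 1 library each. Mutant cells came from Six2-Qpc-/- kidneys, in which both floxed alleles of *Uqcrq* (*Qpc*), a subunit of mitochondrial (mt) complex III, were targeted by Cre. Control cells came from heterozygous Six2-Qpc+/- kidneys, so 1 allele was also targeted in the controls. Both groups carried the bacterial artificial chromosome transgene in which the *Six2* promoter drives Cre fused to eGFP, and eGFP fluorescence was used to sort the cells. The labels give no litter, sex or number of embryos for a library, and p-values therefore measure the spread between these preparations.

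Mitochondria form a network that is remodeled by large GTPases of the dynamin family. MFN1 and MFN2 tether and fuse the outer membranes of neighboring mitochondria, and OPA1 fuses the inner membranes and keeps the cristae, the folds that hold the respiratory complexes, in shape. Division is carried out by DNM1L (also named DRP1), which is recruited from the cytosol by adaptors in the outer membrane, among them MFF, MIEF1, MIEF2 and FIS1, and which then constricts the organelle. Much of this machinery is controlled after translation, by phosphorylation, ubiquitination and proteolytic cleavage, which transcript counts do not measure.

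The 8 genes lie on 7 chromosomes of GRCm38. In the table, *Opa1* spans chromosome 16 from 29579334 to 29654884 and *Dnm1l* the same chromosome from 16312235 to 16359030. *Mfn1* is at 32529465 to 32579239 on chromosome 3, *Mfn2* at 147873599 to 147904704 on chromosome 4, *Fis1* at 136953275 to 136966234 on chromosome 5 and *Mff* at 82724890 to 82752394 on chromosome 1. *Mief1* is at 80234080 to 80253366 on chromosome 15, and *Mief2* at 60728398 to 60732951 on chromosome 11. Of the 28 pairs of members, 0 share a stretch of 50 bases in their GENCODE transcripts. Several produce many splice forms, with 10 coding transcripts annotated for *Mff*, 6 each for *Mfn2* and *Dnm1l* and 4 for *Opa1*, and the table holds 1 count per gene, so switches between splice forms were not measured.

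The 250 bases before the transcription start (RefSeq, GRCm38.p6) are shown for 2 members, *Opa1* because it was the only member with a match to a searched motif, and *Mff* because it had the smallest p-value of the 8. The motifs, searched on both strands, were GCATGCGC of nuclear respiratory factor 1 (NRF1), TGATGNAA of ATF4 with its C/EBP partners and AAGGTCA of estrogen-related receptors. Capitals mark the match to the NRF1 motif, which overlaps its own reverse complement. The *Opa1* sequence is chr16:29579084-29579333 and the *Mff* sequence is chr1:82724640-82724889, both on the plus strand.
Opa1: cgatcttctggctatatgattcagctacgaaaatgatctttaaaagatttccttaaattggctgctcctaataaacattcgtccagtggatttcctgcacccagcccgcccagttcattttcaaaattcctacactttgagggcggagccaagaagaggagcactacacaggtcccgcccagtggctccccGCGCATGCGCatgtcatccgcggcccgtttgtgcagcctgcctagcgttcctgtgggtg
Mff: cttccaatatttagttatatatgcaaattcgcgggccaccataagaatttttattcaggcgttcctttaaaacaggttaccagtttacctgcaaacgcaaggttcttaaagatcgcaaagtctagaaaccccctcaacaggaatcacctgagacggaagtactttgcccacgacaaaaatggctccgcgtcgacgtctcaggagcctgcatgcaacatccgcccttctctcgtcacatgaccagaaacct
All 8 members had at least 1 such window, 13 windows in all, and 1 of the 13 held the NRF1 motif, against 2.26% of 32851 windows over all genes. None of the 13 held the ATF4 or the estrogen-related receptor motif, which occur in 3.45% and 4.08% of all windows. These are matches of letters and not measured binding.

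Between 21040536 and 23986458 reads were counted per library. The targeted gene *Uqcrq* had 94.1 ± 13.3 counts per 1000000 normalized counts (CPM; SD, n = 4) in control cells, and mutant cells had 21.3 ± 4.45 CPM (SD, n = 5), with no overlap between genotypes. Markers of nephron progenitors were abundant in every library, with summed levels of 1550 to 1923 CPM in control and 1772 to 2103 CPM in mutant cells, and 0 of 9 passed the threshold. Of 6 ureteric bud markers, *Ret*, *Wnt9b* and *Gata3* were under 1 CPM in all libraries, while *Hoxb7* had 22.5 to 46.3 CPM, *Wnt11* 4.18 to 18.4 CPM and *Calb1* up to 11.02 CPM. Their sum was 44.9 to 62.9 CPM in control and 27.4 to 49.4 CPM in mutant libraries, and 0 of the 3 tested passed the threshold. Of 7 stromal markers, 5 passed the threshold, all higher in mutant cells, and the list summed to 190 to 563 CPM in mutant against 77.7 to 145 CPM in control libraries. Without passing, *Dcn* was higher and *Pdgfrb* lower (log2 fold change, mutant over control, 0.84 and −0.51). Of 6 markers of committed nephron cells, 3 passed, all lower, and the list summed to 245 to 355 CPM in mutant and 327 to 650 CPM in control libraries. *Jag1* and *Fgf8* were also lower without passing (−0.69 and −1.11), and *Pax8* was at 0.00. Macrophage markers summed to 2.22 to 5.14 CPM in control and 5.03 to 41.7 CPM in mutant libraries, and endothelial markers to 0.464 to 0.970 and 1.15 to 4.64 CPM, with 1 of 3 and 1 of 2 tested genes past the threshold, each higher. The other tested genes of these lists were also higher without passing, with log2 fold changes of 2.21 for *Csf1r*, 3.49 for *C1qa* and 0.74 for *Kdr*. In bulk RNA, a different share of cells of a type and a different amount of RNA per cell cannot be told apart.

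The members differed widely in abundance, and the most abundant were fission genes (levels per length, as the FPKM values that the authors deposited). *Fis1*, a small tail-anchored adaptor of the outer membrane, had the highest level, with a median of 209 FPKM over the 9 libraries and a range of 183 to 245. *Mff*, the main recruiter of DNM1L in many cell types, followed with a median of 76.7 FPKM (64.5 to 90.9), and *Dnm1l* itself with 34.7 FPKM (30.3 to 39.4). The ranges of these 3 fission genes did not overlap with each other or with any other member, and by mean FPKM they stood above 97.2%, 91.5% and 82.2% of the genes tested. These levels rest on the deposited gene lengths, 3918 bases for *Mff* and 4068 for *Dnm1l*. All annotated exons together cover 9757 and 5203 bases in these genes. Levels on other lengths were not computed, so the separation and the order of members hold for the deposited lengths only.
The fusion genes were less abundant. *Mfn1* had a median of 10.6 FPKM (7.63 to 13.9) and *Opa1* of 8.69 FPKM (6.12 to 11.3), and their ranges overlapped, although *Mfn1* was above *Opa1* in 8 of 9 libraries. *Mief1*, with 5.26 FPKM (3.20 to 6.86), and *Mfn2*, with 4.45 FPKM (3.59 to 6.53), could not be ordered, since *Mief1* was the higher in only 5 of 9 libraries. *Mief2* was lowest in every library, with a median of 2.43 FPKM (1.11 to 4.18). The order of genotype means was the same in control and mutant cells.

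**Figure D1:**
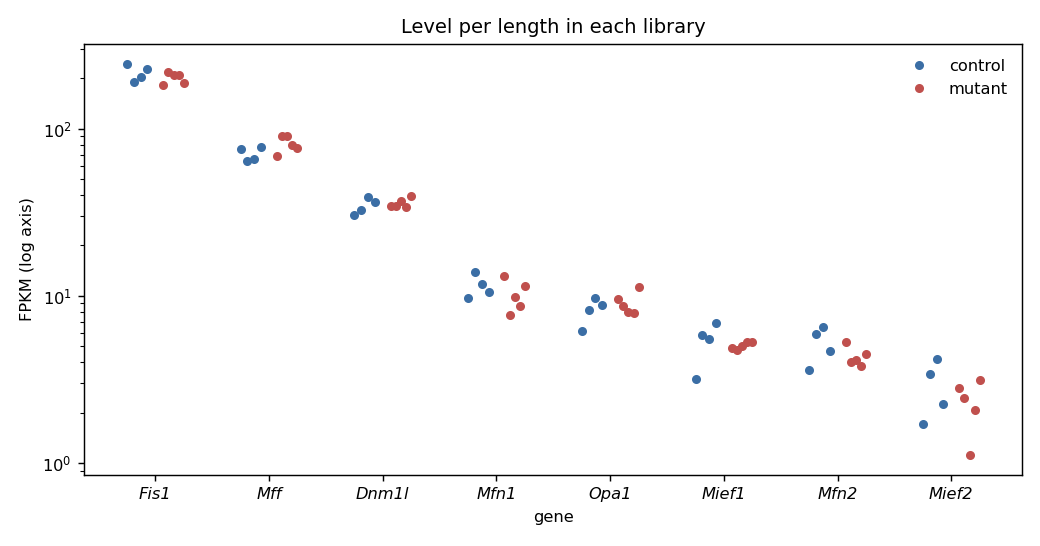
Each point is the FPKM of a gene in 1 library (log axis), for 4 control and 5 mutant libraries, with genes ordered by their median. With the deposited gene lengths, *Fis1*, *Mff* and *Dnm1l* form separate steps above the other 5 genes, and control and mutant points overlap for each gene.

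To ask whether loss of complex III changed the transcripts of this machinery, the 14990 genes with sufficient counts were tested for a difference between genotypes by the quasi-likelihood test of edgeR, with Benjamini-Hochberg adjustment and a threshold of 0.05. All 8 members were among the 14990. After adjustment 0 of 8 members passed, against 14.8% of all genes tested. Without adjustment, 1 member (*Mff*) had a p-value under 0.05, against 31.4% of all genes, and DESeq2 likewise gave 0 members after adjustment and 1 without. Control and mutant libraries overlapped for all 8 members, and 15.2% of the genes tested had no overlap. With only 8 members, these counts cannot be told apart from the shares over all genes. Of the 8, 5 had a fitted value higher in mutant cells and 3 lower, where the 5 include *Fis1* at 0.00 and *Mief1* at 0.01. The median log2 fold change of the members was 0.01 and the median size without sign was 0.16, beside −0.01 and 0.30 over all genes tested. The genes were not matched for level in this comparison. By mean FPKM the members ranged from *Mief2*, above 34.5% of the genes tested, to *Fis1*, above 97.2%.

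**Figure D2:**
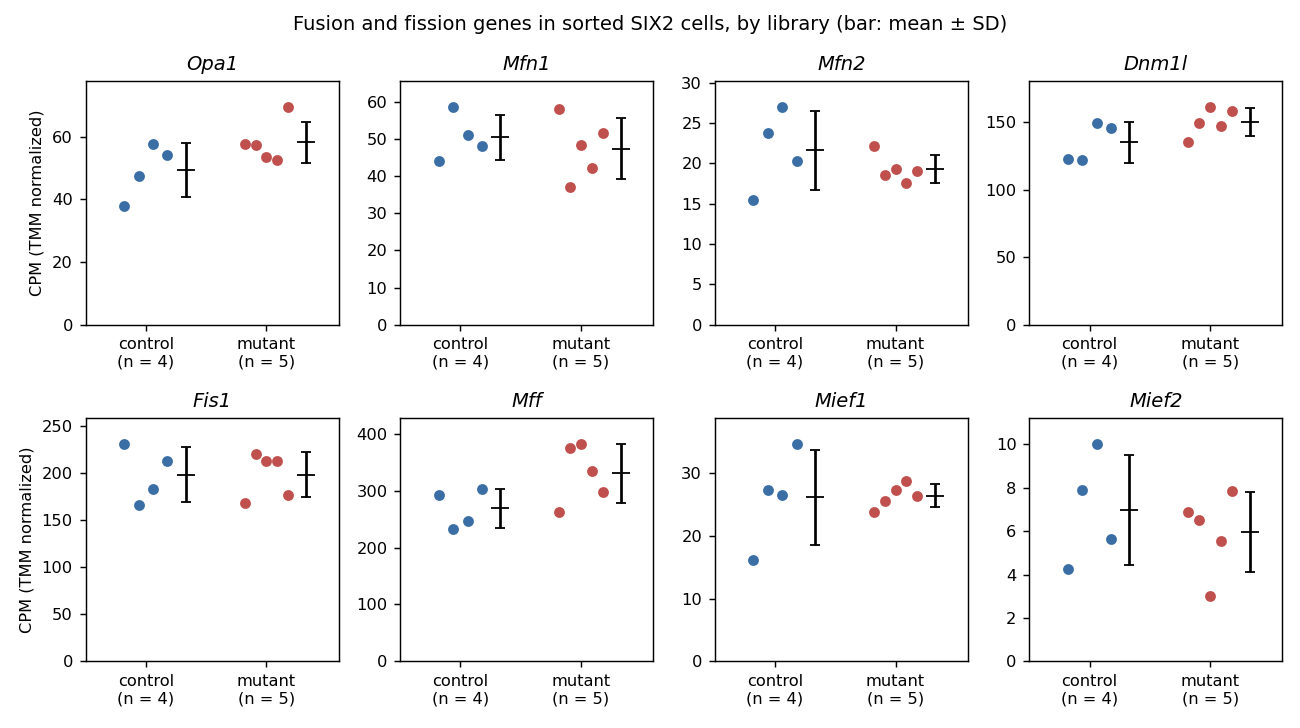
Normalized level (CPM) of each of the 8 genes, 1 point per library, with the mean and SD of each genotype beside the points (4 control, 5 mutant). The points of the genotypes overlap in all 8 panels, and the *Mff* panel shows the clearest displacement, from a mean of 269 to 330 CPM.

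Among the fusion genes, *Opa1* had 37.9, 47.5, 57.7 and 54.3 CPM in control replicates 71, 72, 73 and 76, and 57.7, 57.5, 53.6, 52.7 and 69.5 CPM in mutant replicates 74, 75, 77, 78 and 79. The lowest value was that of control replicate 71 and the highest that of mutant replicate 79, and the other 7 libraries lay within the range of 47.5 to 57.7 CPM. The log2 fold change (mutant over control) of *Opa1* was 0.24 (standard error, SE, 0.14; edgeR-adjusted p = 0.276), and its 95% interval, from −0.07 to 0.54, allows up to 1.46-fold more transcript in mutant cells.
*Mfn1* had 44.1, 58.5, 51.1 and 48.0 CPM in the same control libraries and 57.9, 37.0, 48.3, 42.2 and 51.5 CPM in the mutant libraries. The mutant values enclosed most of the control values, with a log2 fold change of −0.09 (SE 0.15, interval −0.41 to 0.22). *Mfn2*, which also tethers mitochondria to the endoplasmic reticulum, had 15.5, 23.8, 27.0 and 20.3 CPM in control and 22.2, 18.6, 19.3, 17.5 and 19.1 CPM in mutant cells. All 5 mutant values fell inside the control range, which was the wider of the pair, and the log2 fold change was −0.16 (SE 0.17, interval −0.53 to 0.20).

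The GTPase of fission, *Dnm1l*, had 122.6, 121.8, 149.9 and 146.2 CPM in control and 135.4, 149.8, 161.3, 147.3 and 158.4 CPM in mutant libraries. The upper pair of control values lay among the mutant values. With a log2 fold change of 0.16 (SE 0.11; edgeR-adjusted p = 0.362) and an interval of −0.08 to 0.39, *Dnm1l* was the member with the smallest SE.
The adaptor *Mff* had 292.9, 232.9, 246.7 and 302.6 CPM in control and 262.1, 375.0, 382.0, 334.3 and 296.9 CPM in mutant libraries. Mutant replicates 75, 77 and 78 were above all control libraries, while mutant replicates 74 and 79 lay within the control range. Its log2 fold change of 0.30 (SE 0.14, interval 0.00 to 0.59) corresponds to a 1.23-fold higher level and had an unadjusted p of 0.0481 and an adjusted p of 0.155 (edgeR). *Mff* passed the threshold in limma-voom with sample quality weights (log2 fold change 0.40, adjusted p = 0.0153) and, in a fit added after the data were seen, with the length trend of each library as a covariate (0.37, adjusted p = 0.00949). Other adjustments lowered it, to 0.16 with 1 surrogate variable and 0.23 with Y-linked expression as a covariate (edgeR-adjusted p = 0.0892 and 0.236).

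*Fis1* had 230.9, 166.4, 182.7 and 213.1 CPM in control and 168.5, 220.4, 212.8, 212.9 and 176.7 CPM in mutant cells. Its mean was 198 CPM in both genotypes, with SD of 29.1 and 23.8 CPM, a log2 fold change of 0.00 (SE 0.13) and an interval of −0.28 to 0.28. *Mief1*, an adaptor that can bind DNM1L independently of MFF, had 16.1, 27.3, 26.5 and 34.7 CPM in control and 23.9, 25.6, 27.3, 28.8 and 26.4 CPM in mutant cells. Here too the control libraries enclosed the mutant ones, with control replicate 71 lowest and control replicate 76 highest, and the log2 fold change was 0.01 (SE 0.19, interval −0.39 to 0.41).
Its paralog *Mief2* had 4.26, 7.91, 10.03 and 5.65 CPM in control and 6.90, 6.51, 3.01, 5.56 and 7.85 CPM in mutant cells, from 59 to 238 reads per library. With the fewest reads it was also the least precise member, with a log2 fold change of −0.22 (SE 0.30) and an interval of −0.88 to 0.43. A fall to 0.545-fold or a rise to 1.35-fold therefore lies within the interval of *Mief2*, and the size of change that could be detected was not computed. The adjusted p of *Mfn1*, *Mfn2*, *Fis1*, *Mief1* and *Mief2* was 0.713, 0.548, 0.9998, 0.968 and 0.661 (edgeR). For 6 of the 8 members the interval lay within 1.5-fold in either direction, and *Mff* and *Mief2* were the exceptions.

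**Figure D3:**
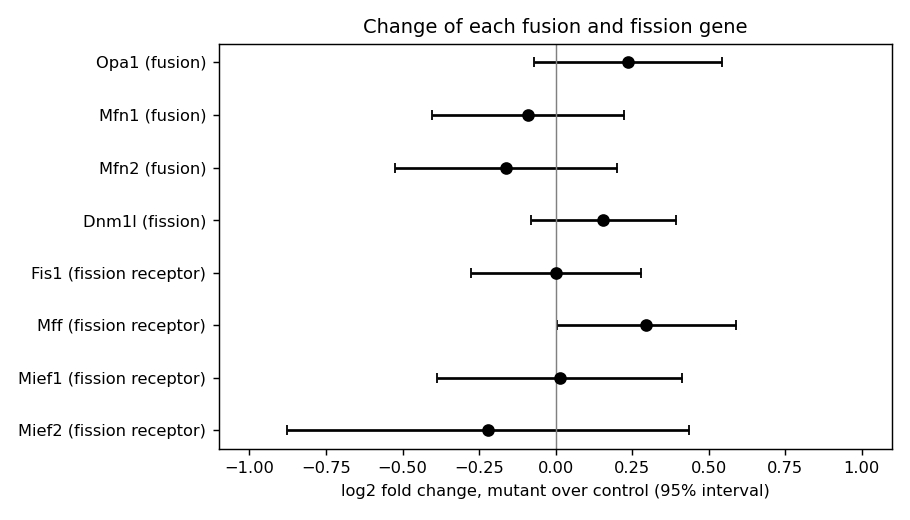
Log2 fold change of each gene, mutant over control, with its 95% interval from the edgeR fit, with the role of each gene in parentheses. The intervals of 7 of 8 genes hold 0, that of *Mff* begins at 0.00, and that of *Mief2* is the widest.

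The balance between paralogs was compared within libraries, where it does not depend on the normalization. The log2 ratio of *Mfn2* to *Mfn1* reads was −1.24 ± 0.24 (SD, n = 4) in control cells, with a range of −1.51 to −0.92, and −1.28 ± 0.17 (SD, n = 5) in mutant cells, with a range of −1.43 to −0.99. The difference of −0.04 was smaller than the SD of either genotype (p = 0.762, exact permutation test, 2-sided). The ratio of *Mief2* to *Mief1* was −1.93 ± 0.51 (SD, n = 4) in control cells, and in mutant cells it was −2.21 ± 0.60 (SD, n = 5), a difference of −0.28 that was likewise within the spread (p = 0.492, exact permutation test, 2-sided). Both p-values were 0.762 after adjustment over the 2 pairs, and the smallest p that 4 libraries against 5 allow is 0.00794. *Mfn1* reads therefore outnumbered *Mfn2* reads, and *Mief1* reads outnumbered *Mief2* reads, in every library of both genotypes.

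Libraries of the same genotype differed in how levels followed gene length. The slope of the log2 CPM deviations on log2 gene length ranged from −0.12 (control replicate 71) to 0.08 (control replicate 72) in control and from −0.05 (mutant replicate 77) to 0.11 (mutant replicate 79) in mutant libraries, with means of −0.02 and 0.02. It was above 0 in control replicates 72 and 73 and in mutant replicates 74 and 79. In these 4 libraries *Fis1*, the shortest member with 948 bases, had 166 to 183 CPM, against 213 to 231 CPM in the other 5. *Mfn1*, with 4562 bases, had 51.1 to 58.5 CPM in the 4 libraries and 37.0 to 48.3 CPM in the other 5, and *Mief2*, with 2522 bases, had 6.90 to 10.03 CPM against 3.01 to 6.51 CPM. These 3 of 8 members thus did not overlap by the sign of the slope, as did 11.6% of all genes tested, and the other 5 members overlapped. The slope was fitted to the same CPM values, control replicate 73 lay barely above 0 (slope 0.0021), and the 3 genes were singled out after their values were seen, so this is a description only. What sets the slope was not tested, and 3 of the 4 libraries (control replicates 72 and 73 and mutant replicate 79) were also the only ones with abundant Y-linked transcripts, at 263 to 328 CPM against 0.177 CPM or less.

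**Figure D4:**
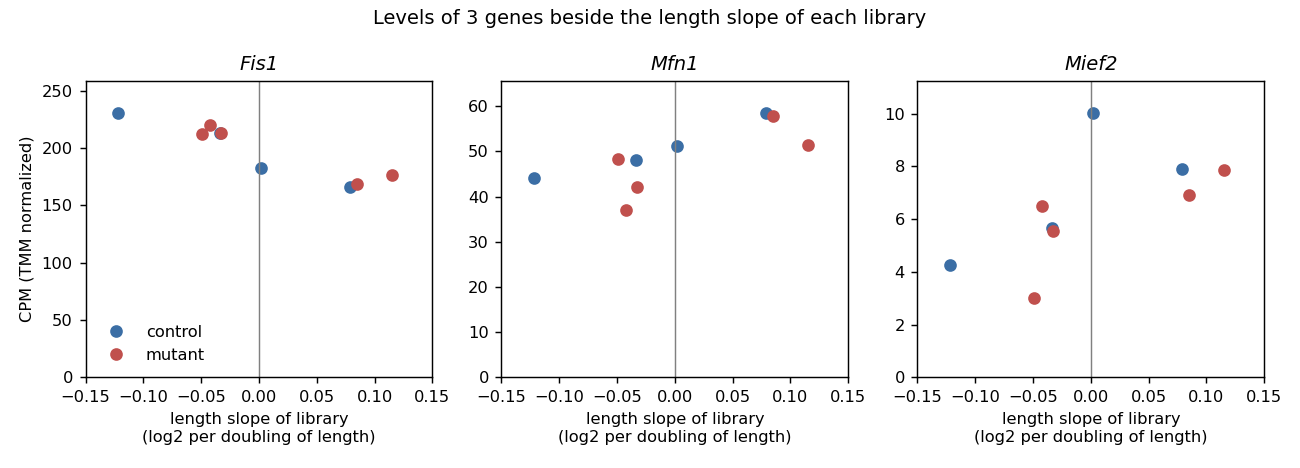
CPM of *Fis1*, *Mfn1* and *Mief2* in each library against the length slope of that library (log2 CPM per doubling of gene length), with the 4 control and 5 mutant libraries in different colors. The 3 genes were chosen because the 4 libraries to the right of 0, 1 of them at 0.0021, do not overlap with the other 5, as for 11.6% of all genes tested, and *Fis1* has 166 to 183 CPM in these 4.

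The pattern of *Mff*, the member with the smallest p-value, was compared with that of the 9348 genes that averaged 10 CPM or more. The closest over the 9 libraries were *Mrps17*, a mt ribosomal protein gene (Pearson r = 0.992), *Eif2a*, which encodes a translation initiation factor (r = 0.990), and *Nck1*, which encodes an adaptor protein of tyrosine kinase signaling (r = 0.988), on log2 CPM. Their own log2 fold changes were 0.34, 0.27 and 0.34, and none of the 3 passed the threshold (adjusted p = 0.0988, 0.216 and 0.189, edgeR).

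Genes that act beside the fusion and fission machinery were grouped in 5 lists by role, 53 genes in all, of which 52 had sufficient counts and *Gdap1* did not. Of these 52, 6 passed the threshold (11.5%, beside 14.8% of all genes tested), 3 higher and 3 lower in mutant cells. Their median log2 fold change was 0.04, and by list it was −0.11 for other shape factors, −0.11 for OPA1 processing, −0.03 for cristae and MICOS (mitochondrial contact site and cristae organizing system), 0.15 for ubiquitin and kinase control and 0.14 for transport along microtubules. Leaving out a library moved this number and also the number over all genes tested, which was 2225 with all libraries. Only 1 passed after removal of control replicate 72 or 73 or mutant replicate 78, beside 1272, 1046 and 1336 of all genes. Removal of mutant replicate 77 left 2 beside 1564, and that of control replicate 71 left 3 beside 1354. Dropping mutant replicate 74 gave 10 beside 3136. In these refits the log2 fold changes of the 3 higher genes stayed between 0.44 and 0.78. Those of the 3 lower genes stayed between −0.69 and −0.35.
*Kif5b*, the heavy chain of the kinesin that carries mitochondria along microtubules, rose from 171 ± 10.2 CPM (SD, n = 4) to 238 ± 14.1 CPM (SD, n = 5). The control libraries had 156 to 179 CPM and the mutant libraries 225 to 253 CPM, with no overlap. Its log2 fold change was 0.48 (SE 0.10; edgeR-adjusted p = 0.0086), and it passed the threshold in all 18 alternatives tried. Of the 8 genes in its list of transport genes it was the only one past the threshold, and the outer membrane GTPase *Rhot1*, which links mitochondria to the motors, had a log2 fold change of 0.33 (edgeR-adjusted p = 0.124).
*March5*, an outer membrane ubiquitin ligase that acts on DNM1L, its adaptors and the mitofusins, rose from 138 ± 18.7 CPM (SD, n = 4) to 199 ± 28.2 CPM (SD, n = 5). The highest control library had 162 CPM and the lowest mutant library 165 CPM, so the genotypes did not overlap but came close. The log2 fold change was 0.53 (SE 0.13; edgeR-adjusted p = 0.0212), and the adjusted p of *March5* was between 0.051 and 0.0726 without control replicate 72 or 73 or mutant replicate 77 or 78. It was the only gene past the threshold among 12 that modify or turn over the machinery. In the same list *Pink1*, the kinase that marks depolarized mitochondria, had 104 CPM in control and 68.0 CPM in mutant cells (edgeR-adjusted p = 0.0897).
*Mtfr1*, a mitochondrial fission regulator, rose from 119 ± 20.7 CPM (SD, n = 4) to 186 ± 39.3 CPM (SD, n = 5), with a log2 fold change of 0.65 (SE 0.17; edgeR-adjusted p = 0.0243). Mutant replicate 74, with 123 CPM, lay below control replicate 76, with 148 CPM. Without control replicate 71, 72 or 73 or mutant replicate 77 or 78 the adjusted p of *Mtfr1* was between 0.0561 and 0.0747. The other 10 tested genes of its list of shape factors did not pass.

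The 3 genes that fell were *Oma1* and *Sirt3*, of the OPA1 processing list, and *Samm50*, of the cristae list. *Oma1* encodes the stress-activated peptidase that cleaves OPA1, and it fell from 40.3 ± 6.99 CPM (SD, n = 4) to 26.7 ± 4.88 CPM (SD, n = 5). Control replicate 76, at 30.7 CPM, was within the mutant range of 21.2 to 32.9 CPM. The log2 fold change was −0.59 (SE 0.17; edgeR-adjusted p = 0.0317), with an adjusted p of 0.0733 to 0.114 without control replicate 71, 72 or 73 or mutant replicate 78, and of 0.0635 with Y-linked expression as a covariate. *Sirt3*, a mt deacetylase with OPA1 among its reported substrates, fell from 44.4 ± 10.2 CPM (SD, n = 4) to 31.1 ± 3.04 CPM (SD, n = 5), with a log2 fold change of −0.51 (SE 0.16; edgeR-adjusted p = 0.0411). Its genotypes did not overlap, with 36.0 CPM in the lowest control and 34.4 CPM in the highest mutant library, and without control replicate 71, which had 59.0 CPM, the log2 fold change was −0.35 and the adjusted p-value 0.121. Without control replicate 72 or 73 or mutant replicate 75, 77, 78 or 79 the adjusted p of *Sirt3* was between 0.0514 and 0.0976.
The other 8 of the 10 genes did not pass. Among the other proteases of this list, the log2 fold change was −0.51 for *Spg7*, −0.30 for *Parl*, 0.00 for *Afg3l2* and 0.10 for *Yme1l1* (adjusted p = 0.0553, 0.136, 0.998 and 0.584, edgeR). *Samm50*, which inserts barrel-shaped proteins into the outer membrane and binds MICOS, fell from 122 ± 12.8 CPM (SD, n = 4) to 88.1 ± 13.2 CPM (SD, n = 5). The lowest control library had 107 CPM and the highest mutant library 103 CPM. Its log2 fold change was −0.47 (SE 0.13; edgeR-adjusted p = 0.0302), and the other 10 genes of the cristae list did not pass, with *Immt*, the core subunit of MICOS, at 0.04. Without control replicate 71, 72 or 73 or mutant replicate 75, 77 or 78 the adjusted p of *Samm50* was between 0.051 and 0.101. Marker genes also differed between the same libraries. Past the threshold, 5 of 7 stromal, 1 of 3 macrophage and 1 of 2 endothelial markers were higher, and 3 of 6 committed nephron markers lower. The part of these marker differences in the 6 changes was not tested.

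**Figure D5:**
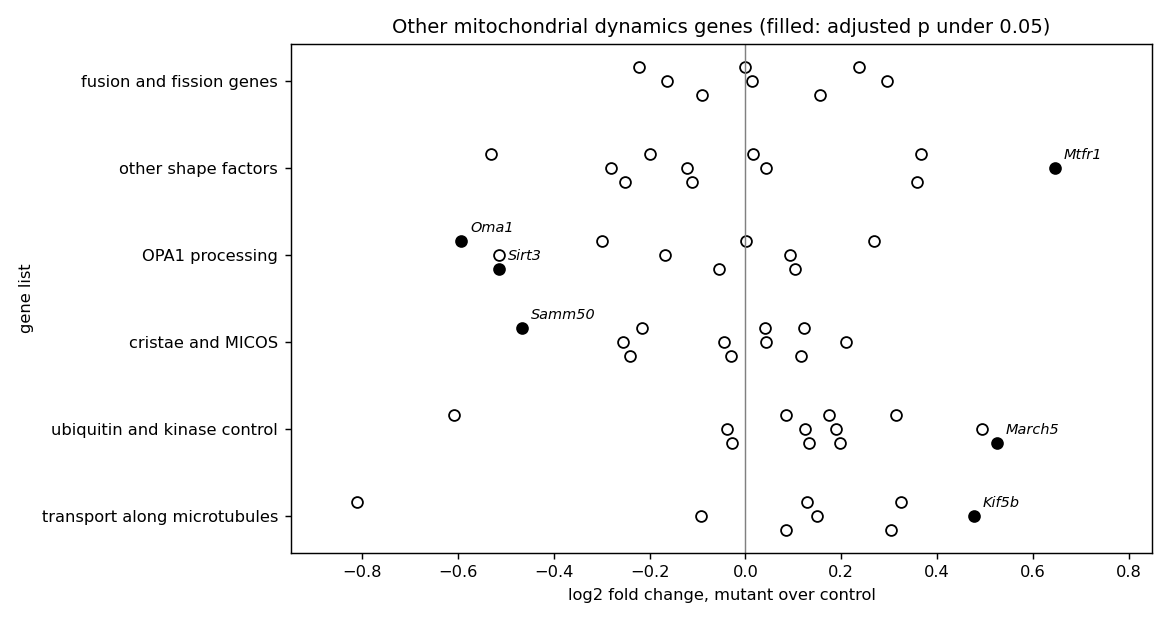
Log2 fold change (mutant over control) of the 8 fusion and fission genes and of 52 tested genes in 5 other lists, 1 point per gene, offset vertically for legibility. Filled points passed the threshold (adjusted p under 0.05): *Mtfr1*, *March5* and *Kif5b* were higher, *Oma1*, *Sirt3* and *Samm50* were lower, and none of the 8 fusion and fission genes is filled.

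Reads could also be shared with neighboring genes, since the libraries kept no strand. *Mff* overlaps the exons of the antisense gene *C430014B12Rik* over 195 bases, and that gene had at most 23 reads in a library. *Dnm1l* overlaps the antisense gene *Gm49521* over 243 bases and shares sequence with the processed pseudogene *Gm13719*, which had at most 1 read in a library. *Mief1* overlaps *AC140267.1*, a coding gene model on the same strand, over 213 bases. *Gm49521* and *AC140267.1* are not among the genes of the table under these names, so their reads could not be compared. The counting tool is not given, so how reads in shared stretches were assigned is not known. Low counts of a neighbor therefore do not show that few reads were shared.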

How the data were processed

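RNA of eGFP-sorted SIX2 progenitors (4 control and 5 mutant preparations, E18.5) was amplified with a low-input kit, selected for poly(A) and sequenced without strand information. The submitters' processing notes name STAR, DESeq2 and build mm10; versions and the counting tool are not given in the sources used here. The authors deposited read counts per gene for each library, and FPKM values, which equal counts scaled by gene length and by the counted reads of the library within 1% for 100% of the genes. The deposited table also holds the authors' mean normalized signal per genotype, log2 fold change and p-value columns, which were not used. Genes were matched by symbol; *March5* is written as a date in the table and *Miga1*, *Miga2*, *Micos10* and *Micos13* are listed under older names.

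Counts were filtered by filterByExpr, normalized by TMM and tested with the quasi-likelihood F-test of edgeR 4.0.16 (R 4.3.3, robust estimation; adjusted p over 14990 genes). Standard errors were derived from the F statistic. Paralog ratios were compared by exact permutation over 126 splits (SciPy 1.17.1). The length slope was fitted to log2 CPM with a prior count of 2, and likeness was measured on log2(CPM + 0.5). The fit was also run on simulated counts with known changes. These held no length trend and no difference in cell composition, and the outcome is not given here. Alternatives were DESeq2 1.42.0, limma-voom (limma 3.58.1), RLE and upper-quartile normalization, 2 other filters, 1 surrogate variable (sva 3.50.0), Y-linked expression or the length slope as a covariate, and each library left out.

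The members, lists and tests were chosen with earlier results of these data known. All 8 members are named, with the genes of the other 5 lists past the threshold, the 3 genes most like *Mff* and, for context and chosen after their values were seen, *Rhot1*, *Pink1*, *Immt* and the other proteases beside *Oma1*. Between 21040536 and 23986458 counts per library make counting error small for all members except *Mief2*.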

Additional observations from a re-analysis of the deposited data

Results flagged for a closer look

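In each genotype, the highest and the lowest library were checked for a gap to the others beyond what chance passes in about 1 of 20 groups. This was done for the 8 fusion and fission genes, the 2 paralog ratios and the 6 other genes past the threshold, 32 groups in all. None of the 32 groups held such a library, where chance alone would give about 1.6. That number is a rough guide only, since the groups share the same libraries and the 6 other genes were chosen by their test.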

How the results depend on the processing

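Each gene was refitted under 18 alternatives, 9 of which left out 1 library. The number of fusion and fission genes past the threshold stayed at 0, except for 1 (*Mff*) with limma-voom and 1 (*Mff*) with the length slope as a covariate, where its log2 fold change was 0.40 and 0.37; with any library left out it was 0, and the adjusted p of *Mff* ranged from 0.00949 to 0.341 over all alternatives. limma-voom and the length covariate also raised the number of all genes past the threshold from 2225 to 4868 and 4243. Over the 18 alternatives the log2 fold change of *Mff* ranged from 0.16, with 1 surrogate variable, to 0.40, with limma-voom. *Opa1* and *Dnm1l* stayed higher and *Mfn2* stayed lower in mutant cells, without a call, in all 18. The sign of *Fis1*, *Mief1*, *Mief2* and *Mfn1* changed in some alternatives, although *Mief2* was at −0.22 in the reported fit. *Fis1* was at −0.0283 with upper-quartile normalization, −0.0065 with at least 10 counts in every library, −0.117 with 1 surrogate variable and −0.0729 with the Y-linked covariate, and between −0.0763 and 0.0806 with 1 library left out. *Mief1* was at −0.0099 with upper-quartile normalization, −0.0023 with the surrogate variable, −0.0079 with the length covariate, and between −0.160 and 0.194 with 1 library left out. *Mief2* was at 0.0099 with the surrogate variable, 0.0284 with the Y-linked covariate, and between −0.397 and 0.0065 with 1 library left out; *Mfn1* was at 0.023 with the surrogate variable. The difference in the *Mfn2* to *Mfn1* ratio lay between −0.126 and 0.0699 with 1 library left out and was positive without control replicate 73; that of *Mief2* to *Mief1* stayed negative.

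Of the 52 other mitochondrial dynamics genes tested, 6 passed in the reported fit, 15 with limma-voom, 13 with the surrogate variable and 15 with the length covariate. Between 1 and 10 passed with 1 library left out. Over all 14990 genes tested, 2225, 4868, 3111 and 4243 passed in the same fits, in the same order. With 1 library left out, between 1046 and 3136 of all genes passed. *Kif5b* passed in all 18 alternatives, and *March5*, *Mtfr1*, *Oma1*, *Samm50* and *Sirt3* lost the call in 4, 5, 5, 6 and 7 of them without a change of direction. The cause of these moves was not tested. The groups share no replicate number, so no paired analysis was possible. The low count of *Mief2* and 4 control libraries limit how small a change could be detected.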
